A study of Mus musculus with 12 samples.

Results

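The transcripts of 8 genes that encode m6A writers were followed in mouse oocytes that lacked the m6A eraser ALKBH5. The genes were *Mettl3*, *Mettl14*, *Wtap*, *Zc3h13*, *Rbm15*, *Rbm15b*, *Cbll1* and *Mettl16*, chosen by symbol from a table of 56691 genes, and all 8 were measured in every library. WT and *Alkbh5*-/- (KO) oocytes came from hormone-primed juvenile C57BL/6 females, and the knockout, made with CRISPR-Cas9 by removing the first exon with its start codon, was present in the whole body. Fully grown oocytes freed of cumulus cells were taken at the germinal vesicle (GV) stage, in which meiosis is arrested in prophase, or were cultured until the times chosen for germinal vesicle breakdown (GVBD) and metaphase II (MII). The 6 groups of genotype and stage held 2 libraries each, made from small pools of oocytes, and the study's legend calls the 2 libraries independent biological samples. According to the study, most KO oocytes failed to pass these transitions. Genotype and true stage thus cannot be told apart in the KO libraries labelled GVBD and MII. The study also reports that KO GV oocytes were smaller and more often had the non-surrounded form of nucleolus. Genotype and oocyte growth thus cannot be told apart at GV either.

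N6-methyladenosine (m6A) is the most common internal mark of mRNA. METTL3 carries the catalytic site and binds S-adenosylmethionine, the methyl donor, and METTL14 forms a heterodimer with it and helps to hold the RNA. A second set of subunits guides this dimer: WTAP is the adaptor, ZC3H13 helps to keep the complex in the nucleus, RBM15 and RBM15B bind RNA, and CBLL1 (HAKAI) is a RING finger protein. METTL16 works apart from the complex and methylates hairpins of the *Mat2a* mRNA and the U6 small nuclear RNA. A fully grown oocyte is transcriptionally silent, and its stored mRNAs are translated, polyadenylated or removed as meiosis proceeds.

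The libraries held 28627380 to 40247810 counts, of which 221927 to 838409 fell on the 92 ERCC sequences, synthetic RNAs added to each tube. Between 47.0 and 127.7 endogenous counts were obtained for each ERCC count, lowest in WT MII replicate 2. *Alkbh5* had 5355 to 10181 counts in the 6 WT libraries and 54 to 143 in the 6 KO libraries, and it was called lower in KO at each stage, with log2 fold changes from -6.43 to -5.41. All 8 oocyte markers were above 0 in every library, at a summed level of 8663 to 16165 CPM (counts per 1e6 counts). The 16 granulosa and cumulus markers summed to 45.2 to 62.2 CPM in WT and 56.2 to 88.8 in KO, with 1 to 5 of them at 0. Of these, *Foxl2* had at most 5 counts and *Amh* at most 4 in any library, whereas *Cyp19a1* had 577 to 2225, *Nr5a2* 292 to 480, *Kitl* 73 to 263 and *Fshr* 17 to 221 counts. Their part in the results was not tested.

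The ends of the 3′ UTRs were read first, because cytoplasmic polyadenylation elements near the end of an mRNA are known to control its tail and translation in the maturing oocyte. The last 100 bases of the principal transcript of each gene (GENCODE M21, GRCm38) were searched on the transcript strand for TTTTAT and TTTTAAT. Transcripts of 3 of the 8 genes held one, against 17.9% of 19604 genes with a 3′ UTR of at least 100 bases. The stretches are shown with the elements in capitals, and they lie at chr3:123368313-123368342 (minus strand), chr14:75344397-75344426 (plus strand) and chr17:12966796-12966825 (minus strand).
Mettl14: tTTTTATtttgctataacttttctaataaa
Zc3h13: TTTTATTTTTAATaaatgtatgttcccttt
Wtap: aaacctaaataaacatTTTTATtacgactc
The *Mettl14* element lay upstream of an AATAAA cleavage signal, and the pair of *Zc3h13* elements ran into theirs. The *Wtap* element shown lay downstream of its AATAAA, and the window of *Wtap* held another element further upstream. Neither motif was found in this window of *Mettl3*, *Rbm15*, *Rbm15b*, *Cbll1* or *Mettl16*, which says only that these letters are absent there.

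The levels of the 8 transcripts were compared as ERCC-scaled counts per kilobase of the principal transcript. *Wtap* was the most abundant writer mRNA in every group. It stood at 4866 ± 911 (SD, n = 2) ERCC-scaled counts per kilobase in WT GV, at 3647 ± 1501 in WT MII and at 2916 ± 64.4 in KO MII, and it made up 56.7% to 82.0% of the summed level of the 8 genes across libraries. This share depends on the length used, 2060 bases for the principal transcript of *Wtap* against 6248 for the union of all annotated exons. With the union *Wtap* was still the highest in every group, but by less. In KO MII it then stood at 961.5, against 416 for *Zc3h13* and 301 for *Cbll1*. *Wtap* was also high among all genes, at the 95.8 percentile of level per kilobase in WT GV and at the 97.1 percentile in WT MII. Fewer oocytes in a pool and less RNA in each oocyte cannot be told apart in these levels.

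Below *Wtap* in WT GV came *Mettl3* at 621 ± 136, *Cbll1* at 503 ± 6.2 and *Zc3h13* at 383 ± 54.9 ERCC-scaled counts per kilobase, with no overlap between neighbours. *Rbm15* at 184 ± 27.4 and *Mettl14* at 152 ± 37.0 overlapped. *Mettl16* at 40.3 ± 5.7 and *Rbm15b* at 27.2 ± 7.4 were the lowest. The catalytic subunit was thus present at a higher mRNA level than its partner METTL14, and the RNA-binding subunit RBM15 at a higher one than its paralog RBM15B.

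The middle of this order moved between groups. In WT MII *Mettl3*, *Zc3h13* and *Cbll1* stood at 310 ± 157, 291.5 ± 101 and 281 ± 112 and overlapped one another. In KO MII the neighbours from *Zc3h13* down to *Rbm15* each overlapped the next. In WT *Rbm15b* was the lowest of the 8 at each stage, although it overlapped *Mettl16* at GVBD, and in KO *Mettl16* was the lowest, with overlap at MII. The order depends on the length used: with the union of all annotated exons, *Mettl3* in WT GV fell below *Cbll1* and *Zc3h13*, at 248 against 490 and 375.

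Whether loss of ALKBH5 changed the writer transcripts was asked at each stage. The ERCC-scaled level of the typical gene was higher in KO, and each member is read against that shift. Over all genes tested the median log2 fold change was 0.36 for GV, 0.23 for GVBD and 0.30 for MII. At GV this shift stayed positive whichever library was left out, from 0.16 without KO GV replicate 1 to 0.49 without KO GV replicate 2. At the later stages it rested on single libraries. At GVBD it was -0.01 without WT GVBD replicate 2, 0.03 without KO GVBD replicate 1 and 0.57 without WT GVBD replicate 1. At MII it was -0.45 without KO MII replicate 1, 0.03 without WT MII replicate 2, 0.70 without KO MII replicate 2 and 0.75 without WT MII replicate 1. The 8 writers had medians of 0.36, 0.34 and 0.38. By edgeR's quasi-likelihood test with Benjamini-Hochberg adjustment, at an adjusted p under 0.05 and an absolute log2 fold change of at least 1, 0 of 8 were called at GV, where 0.0977% of all genes were. At GVBD 0 of 8 were called against 2.54%, at MII 0 of 8 against 0.803%, and over the 3 stages together, with stage in the model, 0 of 8 against 1.26%. At an unadjusted p under 0.05 the counts were 1, 1, 0 and 2 of 8, beside 17.9%, 14.9%, 7.32% and 18.8% of all genes. DESeq2 called 0 of 8 at GV (3.48% of all genes), at GVBD (4.63%) and at MII (1.97%), and 1 of 8 over all stages (6.16%).

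**Figure D1:**
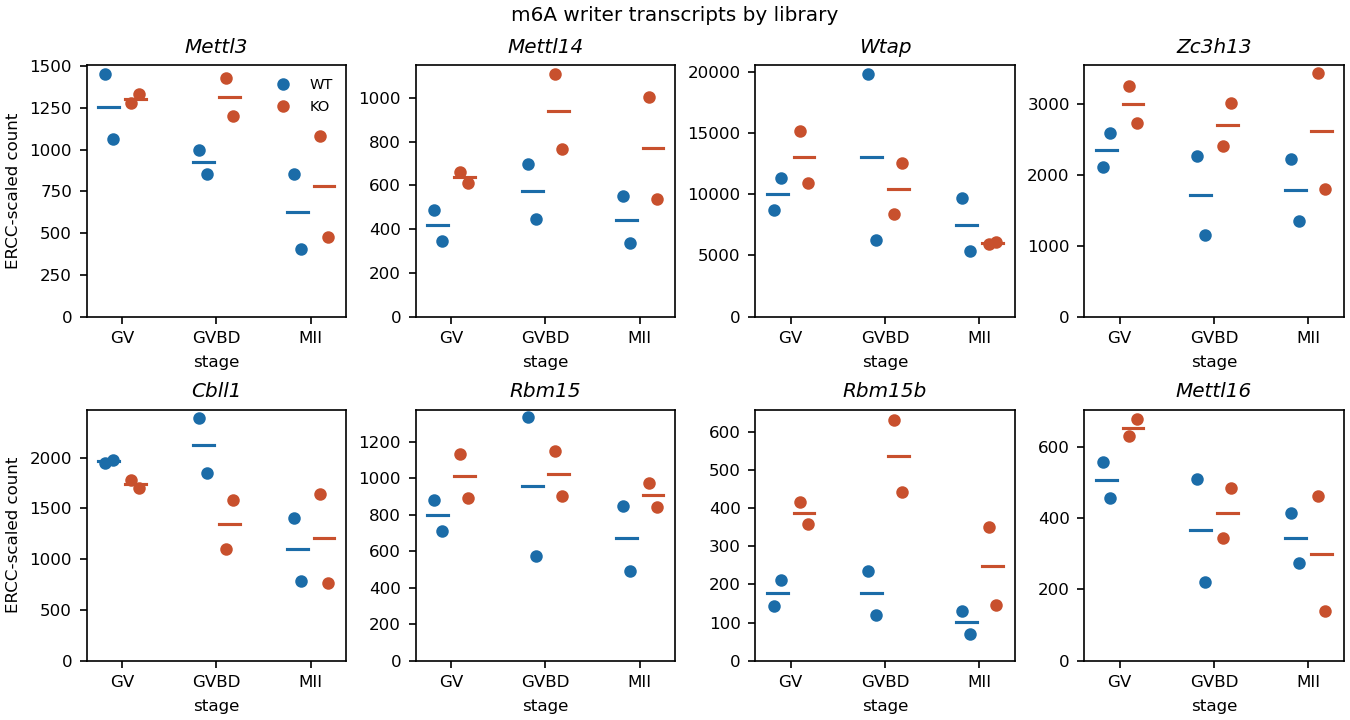
Each point is the ERCC-scaled count of 1 library (vertical axes from 0, a separate scale for each gene) by stage, with WT in blue, KO in orange and a bar at the mean of 2 libraries. The KO points of *Rbm15b* lie above the WT points of the same stage at all 3 stages, those of *Cbll1* lie below WT at GV and GVBD, and *Wtap* in WT GVBD spreads from 6236 to 19819.

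*Rbm15b* (ENSMUSG00000074102, GRCm38 chromosome 9, 106880918 to 106887428, minus strand) was the member with the largest genotype difference. RBM15B is a paralog of RBM15, which binds RNA through RNA recognition motifs and recruits the writer complex, to XIST RNA among others. WT GV libraries gave 121 and 150 raw counts, WT GVBD libraries 176 and 135, and WT MII libraries 165 and 144. The KO libraries gave 229 and 281 (GV), 383 and 400 (GVBD), and 349 and 204 (MII). The raw counts of all 6 KO libraries were above those of all 6 WT libraries. These counts are not scaled to library size, and the share of all genes separated in this way was not computed.

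After ERCC scaling *Rbm15b* had counts of 144 and 211.5 (GV), 236 and 119.5 (GVBD), and 132 and 69.4 (MII) in WT. In KO the scaled counts were 417 and 358.5 (GV), 630 and 441 (GVBD), and 349 and 146 (MII). Within each stage both KO libraries lay above both WT libraries, as they did for 5.39% of all genes and, after TMM scaling over the genes, for 3.99%, and *Rbm15b* was the one member to do so. Across stages the groups overlapped, because KO MII replicate 2, at 146, fell below WT GV replicate 2 and WT GVBD replicate 1. KO lay above WT in all such pairs for 1.09% of genes.

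The mean of *Rbm15b* in KO was 2.18 times (GV), 3.01 times (GVBD) and 2.46 times (MII) that of WT. The log2 fold changes were 1.13 ± 0.36 (SE, edgeR adjusted p = 0.208), 1.59 ± 0.60 (adjusted p = 0.183) and 1.302 ± 0.98 (adjusted p = 1.0). Over all stages the difference was 1.34 ± 0.33 with an adjusted p of 0.0666, just outside the threshold.

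This call turned on the setting. With TMM scaling, which sets the typical gene to no change, the *Rbm15b* difference over all stages was 1.08 ± 0.20 with an edgeR adjusted p of 0.0137, and 2.73% of all genes were called. With TMM-scaled counts all 6 KO libraries (242 to 391) lay above all 6 WT libraries (119 to 176), as for 0.745% of genes. Over 18 alternatives the log2 fold change ran from 1.06 to 1.47 and the edgeR or DESeq2 adjusted p from 0.00227 to 0.192, and 7 of them called the gene. Beside TMM scaling these were median-of-ratios scaling (2.77% of all genes called), DESeq2 (6.16%), no filter on low counts (3.57%), a minimum of 10 counts in every library (6.41%), the replicate block (3.06%) and 1 left-out library. Among the 12 fits without 1 library, the call was made without KO MII replicate 2, at 1.47 ± 0.31 with an edgeR adjusted p of 0.0253 (3.84% of genes called).

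*Rbm15b* shares 75 exon bases with *Dcaf1* on the opposite strand and 14 with *Manf* on the same strand, out of 6511. *Dcaf1* had 261 to 856 counts. *Manf* had 3443 to 5557 counts in the WT GV and GVBD libraries and 442 and 506 in WT MII, and in KO it had 2661 to 4617 and then 176 and 147. The part of these neighbours in the *Rbm15b* counts was not tested, and whether counting used strand is not given in the sources used here.

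*Rbm15* (ENSMUSG00000048109, chromosome 3) did not share this pattern. Its ERCC-scaled counts were 882 and 714 in WT GV against 1134 and 893 in KO GV, and 849 and 493.5 in WT MII against 974 and 844.5 in KO MII. The groups lay apart at GV and overlapped at GVBD and MII, and the difference over all stages was 0.29 ± 0.26, at the median of all genes (0.29). The ratio of *Rbm15b* to *Rbm15* levels per kilobase, which is independent of library scaling, was 0.108 and 0.198 in WT GV and 0.245 and 0.268 in KO GV. At GVBD it was 0.118 and 0.139 in WT against 0.366 and 0.326 in KO, and at MII 0.103 and 0.094 against 0.239 and 0.115. The ratio was higher in both KO libraries at each stage, by little in KO MII replicate 2. It reuses the *Rbm15b* counts given above, so it is not separate evidence, and it was not tested.

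**Figure D2:**
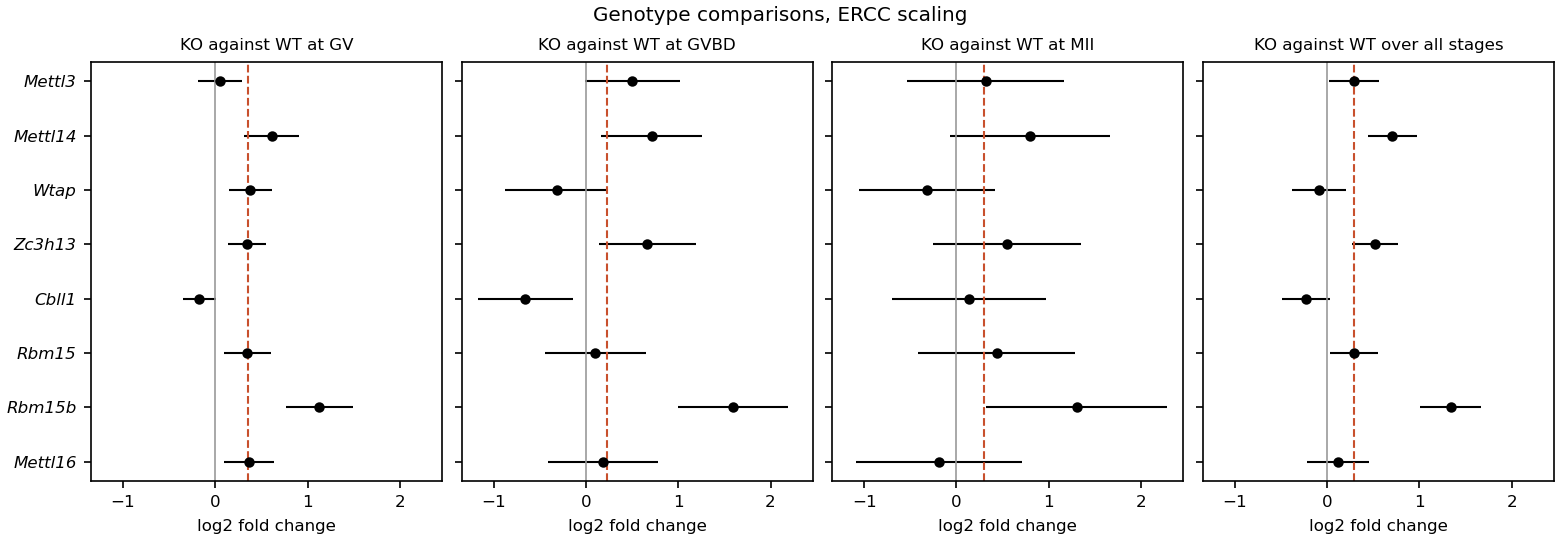
Points are log2 fold changes of KO against WT from edgeR with ERCC scaling, bars are ± 1 SE, the grey line marks 0 and the dashed line the median of all genes tested. *Rbm15b* lies furthest to the right in all 4 panels, from 1.13 to 1.59, and *Cbll1* lies below 0 except at MII.

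*Mettl14* (ENSMUSG00000028114, chromosome 3, 123368297 to 123386108, minus strand) had the next highest log2 fold change over all stages. Its ERCC-scaled counts were 489 and 345.5 in WT GV and 663 and 611 in KO GV. At GVBD they were 697 and 447 in WT and 1110 and 766 in KO, and at MII 552 and 334.5 in WT and 1005 and 538 in KO. The groups lay apart at GV and GVBD, and at MII 1 KO library fell between the WT libraries. The log2 fold change over all stages was 0.71 ± 0.27 (edgeR adjusted p = 0.177) with ERCC scaling and 0.45 ± 0.15 (adjusted p = 0.115) with TMM scaling, and no setting called it. Over 18 alternatives the lowest edgeR or DESeq2 adjusted p was 0.0484. The log2 fold changes of these alternatives ran from 0.43 to 0.80, short of the minimum of 1. Relative to the median gene, *Mettl14* lay 0.42 above over all stages, and *Cbll1* was further off at -0.52.

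*Mettl3* (ENSMUSG00000022160, chromosome 14, 52294841 to 52305128, minus strand), which encodes the catalytic subunit, differed less. Its ERCC-scaled counts were 1452 and 1063 in WT GV and 1278 and 1333 in KO GV, which overlapped. At GVBD the WT counts of 998 and 856 lay below the KO counts of 1426 and 1201, and at MII 853 and 402 overlapped 1082 and 479. The difference over all stages was 0.29 ± 0.27 with ERCC scaling and 0.03 ± 0.16 with TMM scaling, about that of the median gene under each. *Mettl3* shares 933 of its 5076 exon bases with *Tox4* on the opposite strand, which had 418 to 1525 counts.

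*Cbll1* (ENSMUSG00000020659, chromosome 12) went the other way at the earlier stages. Its ERCC-scaled counts were 1946 and 1980 in WT GV and 1784 and 1701 in KO GV, and 2392 and 1846 in WT GVBD against 1102 and 1584 in KO GVBD. At MII the WT counts of 1405 and 788 overlapped the KO counts of 1642 and 770. Both KO libraries lay below both WT libraries at GV and at GVBD, which 9.69% and 17.9% of all genes did. The log2 fold changes were -0.17 ± 0.18 (GV), -0.66 ± 0.51 (GVBD) and 0.14 ± 0.83 (MII), with edgeR adjusted p-values of 0.677, 0.602 and 1.0. With TMM scaling the groups also lay apart at MII, with KO below.

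*Wtap* varied widely between the libraries of 1 group. Its ERCC-scaled counts were 19819 and 6236 in WT GVBD and 8398 and 12527 in KO GVBD, and the groups overlapped at all 3 stages. The difference over all stages was -0.09 ± 0.30. *Zc3h13* had 2119 and 2596 in WT GV against 3257 and 2734 in KO GV, and 2272 and 1151 in WT GVBD against 2407 and 3016 in KO GVBD. It lay apart at both, and its difference over all stages was 0.52 ± 0.25 (edgeR adjusted p = 0.283). *Mettl16* had 558 and 457 in WT GV against 630 and 677 in KO GV, overlapped at the later stages, and differed by 0.12 ± 0.33 over all stages.

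Counted over the 8 genes, ERCC-scaled counts lay higher in KO without overlap for 5 at GV, 4 at GVBD and 1 at MII, against 42.2%, 30.3% and 22.1% of all genes. They lay lower for 1, 1 and 0, against 9.69%, 17.9% and 10.3%. With TMM scaling the genes that lay higher were 1, 2 and 3, against 22.1%, 21.7% and 27.5% of all genes. Those that lay lower were 1, 1 and 2, against 24.4%, 30.3% and 26.2%. *Rbm15b* at all 3 stages, *Cbll1* at GV and GVBD and *Mettl14* at GVBD lay apart in the same direction under both scalings.

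The change of the writers across maturation was examined next. With ERCC scaling the median gene fell from GV to MII by 1.06 on the log2 scale in WT and by 1.17 in KO. In KO this median was -2.09 without KO MII replicate 1 and -0.80 without KO MII replicate 2, and in WT it was -1.58 without WT MII replicate 1. The 8 writers had medians of -0.49 and -0.59, and each of the 8 lay above the median gene in both genotypes. The margin was 0.06 for *Mettl3* in WT and 0.05 for *Wtap* and *Mettl16* in KO, all smaller than the SEs. With at least 10 counts required in every library, the WT median was -0.92, above the main value of -1.005 for *Mettl3*. None of the 8 was called in either genotype, where 30.9% of genes in WT and 3.28% in KO were, and 1 in WT and 0 in KO had an unadjusted p under 0.05, beside 39.1% and 24.6% of all genes. DESeq2 called 0 of 8 in both, and 29.3% and 16.3% of all genes.

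**Figure D3:**
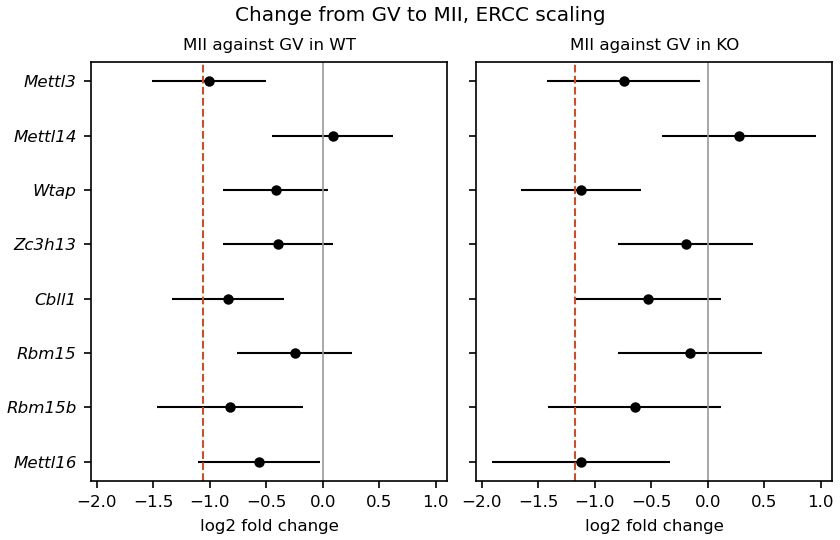
Points are log2 fold changes of MII against GV from edgeR with ERCC scaling, for WT (left) and KO (right), bars are ± 1 SE, the grey line marks 0 and the dashed line the median of all genes tested. All 8 points lie to the right of the dashed line in both panels, and *Mettl14* is the one gene above 0, at 0.09 and 0.28.

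*Mettl14* and *Mettl3* lay at opposite ends in WT. The mean ERCC-scaled count of *Mettl14* was 417 at GV and 443 at MII in WT, and 637 and 771 in KO. Its log2 fold change was 0.09 ± 0.53 in WT and 0.28 ± 0.68 in KO, and the groups overlapped. The mean of *Mettl3* was 1258 at GV and 627 at MII in WT, a log2 fold change of -1.005 ± 0.51 (edgeR adjusted p = 0.122), and both MII libraries lay below both GV libraries. In KO it was 1306 and 780.5, a change of -0.74 ± 0.68, also without overlap. ERCC-scaled counts lay lower at MII without overlap for 58.0% of all genes in WT and 61.4% in KO, and for 4 and 5 of the 8 writers. They lay higher for 3.54% and 3.59% of genes and for 0 writers.

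The other members are given with both genotypes. *Zc3h13* changed by -0.40 ± 0.48 in WT and -0.20 ± 0.60 in KO, and *Rbm15* by -0.25 ± 0.51 and -0.16 ± 0.64, with overlap in both. *Cbll1* had -0.84 ± 0.49 and -0.53 ± 0.65, and *Rbm15b* -0.82 ± 0.64 and -0.65 ± 0.77, both with MII below GV in each genotype. *Mettl16* had -0.57 ± 0.54 in WT and -1.12 ± 0.78 in KO, and *Wtap* -0.42 ± 0.46 and -1.12 ± 0.53, so that these lay below *Mettl3* in KO.

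The genotype difference in this change was tested as an interaction. It ran from -0.70 ± 0.63 for *Wtap* to 0.31 ± 0.73 for *Cbll1*, 0 of 8 were called, and 0.0% of 20807 genes were. None of the 8 had an unadjusted p under 0.05, beside 5.75% of genes, and DESeq2 called 0 of 8 and 0.702% of genes.

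The direction of these changes depends on the scaling. With TMM scaling the median gene changed by -0.14 in both genotypes. TMM-scaled counts of *Mettl14*, *Wtap*, *Zc3h13*, *Rbm15* and *Mettl16* then lay higher at MII than at GV in WT, 5 of 8 against 30.8% of all genes, and none lay lower, against 37.7%. In KO 6 of 8 lay higher against 28.3% and 0 lower against 38.2%, with *Wtap* and *Mettl16* overlapping. The *Mettl14* difference was 0.98 ± 0.29 in WT (edgeR adjusted p = 0.0517) and 1.35 ± 0.28 in KO (adjusted p = 0.0543), so neither was called. Median-of-ratios scaling called *Mettl14* higher in WT, at 1.03 ± 0.29 with an edgeR adjusted p of 0.0436, where 25.4% of genes were called.

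Single MII libraries also decided calls. Such a fit leaves MII with 1 library, which is assumed to vary like the GV libraries, the only source of the spread. Without WT MII replicate 1, *Mettl3* and *Cbll1* were called lower from GV to MII in WT, at -1.65 ± 0.32 and -1.32 ± 0.22, with 26.1% of genes called. Without KO MII replicate 1, 5 of the 8 (*Mettl3*, *Wtap*, *Rbm15b*, *Cbll1* and *Mettl16*) were called lower in KO, with 54.2% of genes called, and without KO MII replicate 2 *Wtap* was, with 16.9%. In each case the fits that kept both libraries called none of these genes with ERCC scaling.

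The ratio of *Mettl14* to *Mettl3* does not depend on library scaling. Per kilobase the WT ratios were 0.249 and 0.240 (GV), 0.516 and 0.386 (GVBD), and 0.478 and 0.615 (MII). The KO ratios were 0.383 and 0.339 (GV), 0.575 and 0.471 (GVBD), and 0.686 and 0.830 (MII). In both genotypes the GVBD and MII libraries lay above the GV libraries, and at GV and MII the KO libraries lay above the WT libraries, whereas at GVBD they overlapped. The ratio was not tested, since it was chosen after the values were seen.

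**Figure D4:**
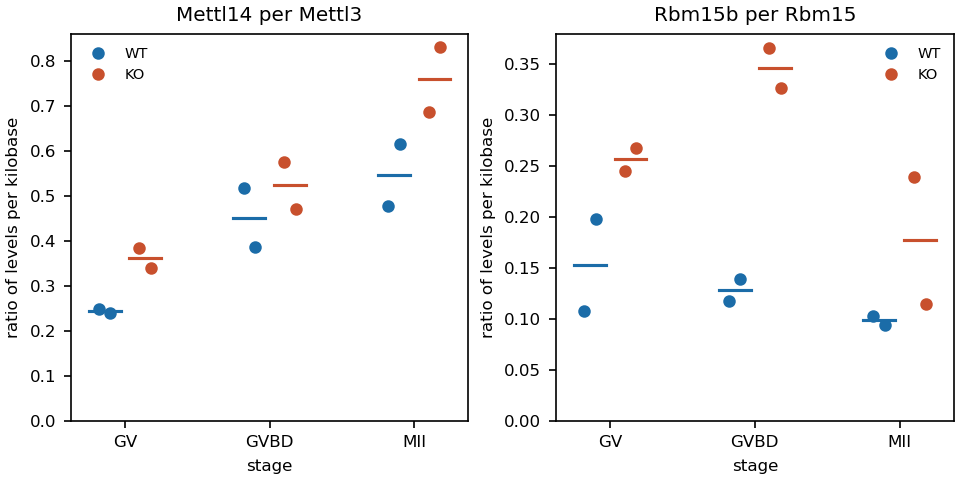
Ratios of levels per kilobase within each library, by stage, with WT in blue, KO in orange and a bar at the mean of 2 libraries. *Mettl14* per *Mettl3* runs from 0.240 in WT GV to 0.830 in KO MII, and *Rbm15b* per *Rbm15* is higher in KO than in WT at each stage.

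The steps within maturation gave no call among the 8 either. From GV to GVBD 0 of 8 were called in WT and in KO, where 0.0511% and 0.22% of genes were, and the member medians were 0.05 and -0.07. From GVBD to MII 0 of 8 were called, against 27.8% of genes in WT and 7.2% in KO, and the member medians of -0.54 and -0.37 lay above those of all genes, -1.11 and -0.88. In these 4 comparisons 0 of 8 had an unadjusted p under 0.05. The shares of all genes were 6.25% (WT) and 7.65% (KO) from GV to GVBD, and 37.5% and 20.9% from GVBD to MII. DESeq2 called 0 of 8 in each, against 1.9% and 1.18% of all genes in the earlier step and 28.4% and 12.6% in the later one. TMM and median-of-ratios scaling called *Zc3h13* higher from GVBD to MII in WT, at 1.05 ± 0.22 and 1.10 ± 0.22, with 25.6% and 26.1% of genes called. Without KO MII replicate 1, *Mettl3* and *Rbm15b* were called lower in that step in KO, with 32.6% of genes called and the spread taken from the GVBD libraries alone.

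The other genes of the pathway were read by list. *Virma*, which encodes the scaffold subunit of the complex, was called in 0 of 11 comparisons. It had 1851 and 1462 ERCC-scaled counts in WT GV and 3128 and 1722 in WT MII, against 1910 and 1604 in KO GV and 2219 and 1233 in KO MII. Its log2 fold change from GV to MII was 0.55 ± 0.49 in WT and -0.03 ± 0.62 in KO, and the interaction of -0.57 ± 0.71 was not called. The genotypes overlapped at each stage on this scale. With TMM scaling *Virma* lay lower in KO without overlap at GV, GVBD and MII, as did 24.4%, 30.3% and 26.2% of all genes. It had 45.6 and 36.1 CPM in WT GV and 115 and 103 in WT MII, against 33.0 and 33.6 in KO GV and 61.9 and 74.4 in KO MII. *Fto*, the other eraser, was called in none, and differed by 0.84 ± 0.32 over all stages in KO (edgeR adjusted p = 0.181).

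Of 5 other RNA N6-adenosine methyltransferases and partners (*Mettl5*, *Trmt112*, *Zcchc4*, *Pcif1*, *Mettl4*), 0 were called between genotypes. *Mettl5*, the 18S rRNA methyltransferase, was called lower from GV to MII in WT, by -3.04 ± 1.03 (edgeR adjusted p = 0.0127), from 71 and 41 raw counts to 17 and 8. It was the 1 of 5 called there, against 30.9% of all genes, and 1 of 5 was called from GVBD to MII in WT, also *Mettl5*, against 27.8%. In KO the GV to MII change of *Mettl5* was -1.80 ± 1.26, from 39 and 27 raw counts to 26 and 6, and was not called. The genotype difference in this change, 1.23 ± 1.58, was not called either.

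Another list held 5 genes of S-adenosylmethionine synthesis and of the *Ahcy* family (*Mat2a*, *Mat2b*, *Ahcy*, *Ahcyl1*, *Ahcyl2*). Of these, 3 were called lower from GV to MII in WT and 0 higher, where 30.9% of all genes were called. *Ahcy*, the S-adenosylhomocysteine hydrolase, went from 215 and 211.5 ERCC-scaled counts in WT GV to 29.5 and 5.3 in WT MII, by -3.64 ± 0.76 (edgeR adjusted p = 1.7e-05). *Ahcyl1* and *Ahcyl2*, relatives of *Ahcy*, had log2 fold changes of -1.98 and -1.94 (edgeR adjusted p = 0.00225 and 0.0097). In KO the same step gave 0 of 5 calls, against 3.28% of all genes. *Ahcy* there had 431.5 and 441 ERCC-scaled counts at GV and 108 and 69.5 at MII. The KO log2 fold changes of *Ahcy*, *Ahcyl1* and *Ahcyl2* were -2.30 ± 0.78, -1.88 ± 0.75 and -1.86 ± 0.76. The genotype difference in the change was called for 0 of 5.

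*Mat2a*, which encodes the S-adenosylmethionine synthetase of most tissues, is the mRNA target of METTL16. Its 3′ UTR in GENCODE M21 held TACAGAGAA, the motif that METTL16 methylates, at 5 places on the transcript strand, and 2.37% of the 19604 genes held it at least once in the 3′ UTR. The 5 sites are shown with the motif in capitals. They are at chr6:72434234-72434263, chr6:72433450-72433479, chr6:72433271-72433300, chr6:72433156-72433185 and chr6:72432937-72432966 on the minus strand of GRCm38, in this order.
Site 1: tggcgtaggtTACAGAGAAgccttcaagct
Site 2: ccttgtgataTACAGAGAAgtcacagggca
Site 3: ctggtgtagcTACAGAGAAaccagcttcct
Site 4: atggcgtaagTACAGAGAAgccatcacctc
Site 5: gctggtgtggTACAGAGAAgccagcttgtt
*Mat2a* itself was not called in any comparison. The WT libraries gave 409 and 769 (GV), 1293 and 703 (GVBD), and 504 and 345.5 (MII) ERCC-scaled counts, and the KO counts were 819 and 1199, 1059 and 611, and 783 and 432. KO lay above WT without overlap at GV, as for 42.2% of all genes, and the groups overlapped at the later stages. With TMM scaling *Mat2a* overlapped at GV, with 10.1 and 19.0 CPM in WT against 14.1 and 25.1 in KO. KO then lay below WT at GVBD, as for 30.3% of all genes, and above it at MII, as for 27.5%. The ERCC-scaled difference of *Mat2a* over all stages was 0.35 ± 0.31.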

How the data were processed

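RNA of 12 oocyte libraries (2 genotypes, 3 stages, 2 replicates) was sequenced. The deposited values are raw counts per gene; according to the methods, the authors trimmed with cutadapt, aligned to GRCm38 (mm10) with HISAT2, retained uniquely mapped reads and ran StringTie and DESeq2. The submitters' processing notes list cutadapt 1.9, HISAT2 2.0.4, StringTie 1.3.4d, DESeq2 and edgeR, whereas the study's reporting form gives other versions of cutadapt and HISAT2, so the versions used are unsettled. The step that gave whole counts, the annotation release and the use of strand are not given in the sources used here, and the submitted protocol describes a bulk preparation whereas the methods describe SMART-seq. Unique mapping lowers counts of near-identical genes, and PCR copies are not independent molecules.

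The members, lists and tests were chosen with earlier results of these data known. Each of 11 comparisons was fitted over all genes kept by filterByExpr with edgeR 4.0.16 (R 4.3.3, glmQLFit and glmQLFTest, two-sided), with library sizes proportional to summed ERCC counts and Benjamini-Hochberg adjustment. SEs are the log2 fold change over the square root of F. Alternatives were TMM and median-of-ratios scaling, DESeq2 1.42.0, other filters, all libraries in one model, a block for the replicate number and fits that omit each library in turn. Named genes were the 8 members, *Alkbh5*, the pathway lists, and the 3 genes nearest in pattern to *Mettl3* and *Mettl14*. The scripts were tested on simulated data. Levels per kilobase used the principal transcript of GENCODE M21.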

Additional observations from a re-analysis of the deposited data

How the results depend on the processing

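In the main edgeR fits, with ERCC scaling, 0 of 8 writer genes were called in each of the 11 comparisons. Over all stages 1 was called (*Rbm15b*) with TMM or median-of-ratios scaling, DESeq2, no filter, at least 10 counts in every library, or the replicate block, and without 1 library the count ran from 0 to 1. From GV to MII in WT, median-of-ratios scaling called 1 (*Mettl14*, higher), and leaving out 1 library gave 0 to 2 (*Mettl3* and *Cbll1*, lower, without WT MII replicate 1). In KO that step gave 0 to 5 (*Mettl3*, *Wtap*, *Rbm15b*, *Cbll1* and *Mettl16*, lower, without KO MII replicate 1, when 54.2% of all genes were called, and *Wtap* alone without replicate 2). From GVBD to MII, TMM and median-of-ratios scaling each called 1 in WT (*Zc3h13*, higher), and in KO leaving out 1 library gave 0 to 2 (*Mettl3* and *Rbm15b*, lower, without KO MII replicate 1). The cause was not tested.

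Of 1080 alternatives to the 88 single-gene values, 925 kept the sign and the call, 20 added a call, and 135 turned the sign of an uncalled value, 66 of them under another scaling. The correlation of the differences of same-numbered libraries ran from -0.22 (KO against WT at GV) to 0.14 (GVBD to MII in WT). With 2 libraries a group, these values do not settle whether a shared number marks a shared batch. The replicate block moved the calls over all genes from 278 to 673 over all stages and from 19 to 0 at GV. Crossed numbers, chosen after seeing the data, gave 218 calls at GV, 0 at MII and 204 from GVBD to MII in KO, and 0 of 8 writers. With 2 libraries a group, SEs of single members at MII reached 0.98 on the log2 scale, although every writer had at least 121 counts in every library.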

Other observations

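The genes whose TMM-scaled pattern over the 12 libraries was nearest to that of *Mettl3* were *Cd55b*, *AC122481.2* and *Pik3cd*, with root mean square differences of centred log2 values of 0.16, 0.17 and 0.17, against a median of 0.60 over 10834 genes. For *Mettl14* they were *Dcaf12*, *Atp1b3* and *Rpe*, at 0.13, 0.16 and 0.16 against a median of 0.73. *Mettl14* itself ranked 3727th among the genes nearest to *Mettl3*, and *Rbm15*, ranked 549th, was the writer nearest to *Mettl14*.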
